A study of Mus musculus with 27 samples.

Results

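The 36 genes described here encode plasma proteins and metabolic enzymes made by hepatocytes, and they were counted in RNA from sorted hepatic stellate cells (HSCs) of the mouse. The members were chosen by name as hepatocyte genes. All 36 were found among the 53379 genes of the count table, and all 36 passed the filter on low counts that left 18758 genes for testing. By role they form 11 carriers and apolipoproteins (Alb, Ttr, Trf, Hpx, Ahsg, Apoa1, Apoa2, Apob, Apoc1, Apoc3 and Apoh), 13 clotting proteins and protease inhibitors (Fga, Fgb, Fgg, F2, Plg, Kng1, Serpina1b, Serpina1c, Serpina3k, Serpinc1, Ambp, Itih3 and Itih4) and 12 genes of metabolism and transport (Cps1, Ass1, Arg1, Pck1, G6pc, Tat, Hpd, Rgn, Akr1c6, Akr1c14, Fabp1 and Slco1b2).

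Hepatocytes make most of the proteins of blood plasma and carry out the urea cycle, gluconeogenesis and amino acid breakdown of the body. Their genes are driven by a small set of liver factors, among them HNF4, and many are used unequally along the lobule: urea cycle and gluconeogenic enzymes are highest around the portal vein, and other enzymes and transporters are highest around the central vein. HSCs are the vitamin A storing pericytes that lie between hepatocytes and sinusoidal endothelium, and are not a source of albumin or fibrinogen. Carbon tetrachloride (CCl4), the agent used for injury, is a hepatotoxin that cytochrome P450 enzymes of hepatocytes around the central vein turn into a reactive radical.

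The 27 libraries came from male Balb/c mice whose liver cells were isolated by perfusion and sorted for the UV signal of stored vitamin A, with RNA taken without culture. Healthy mice (n = 4, 10 to 12 weeks old) received no injection. Acute mice of the same age received 1 intraperitoneal injection of 0.5 µL CCl4 per g in mineral oil and were sampled 24 h later in 3 libraries, 72 h later in 4 or 7 d later in 4. Chronic mice, 8 to 10 weeks old, received 8 such injections over 4 weeks and were sampled 24 h, 72 h or 14 d after the last (n = 4 each). All groups share the strain, the sex and the sort, an injection of oil alone was not described for the controls, and a UV gate selects the cells that still hold vitamin A. The labels do not state that each sample is a separate animal, so the p-values measure the spread between these samples.

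Each library held 6.31 to 13.1 M counts (M for mega-), and 8 of them, among them all 4 of chronic 14 d, held under 9 M counts. Stellate markers were counted in every group, with none of the 12, among them Dcn, Lrat and Des, at 0 in any library. On average they took 3.88% of the counts in healthy libraries and 1.61 to 2.92% in the other groups. By the test described below, 8 of the 12 were called lower at chronic 24 h than in healthy and 1 higher (8.11% and 11.2% of all genes). At chronic 14 d 2 were called lower and 0 higher (1.17% and 4.55% of all genes). In each other injured group 0 were called higher, where 7.88 to 9.41% of all genes were. Called lower were 5 at acute 24 h (12.5% of all genes), 6 at acute 72 h (4.33%), 5 at acute 7 d (5.64%) and 6 at chronic 72 h (4.2%). Healthy replicate 4 and chronic 14 d replicate 2 stood apart from their groups in the members' levels. Healthy replicate 4 was the highest of its group for 34 of the 36 members, at a median of 4.95-fold over the other libraries of the group, and chronic 14 d replicate 2 for 36 of 36, at a median of 3.46-fold. Healthy replicate 4 also had the fewest genes with a count of all 27 libraries, 18807 against 22499 to 26162 in the other healthy libraries.

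Promoter windows, taken from RefSeq on GRCm38.p6 as the 250 bases before the start of transcription, were found for 26 of the 36 members, and Apoc1, Apoc3, Arg1, Cps1, Kng1, Plg, Rgn, Serpina3k, Trf and Ttr had none. The 5 shown belong to members on which the results below turn: Alb and Fgb are abundant secreted products that fell together at acute 24 h, Slco1b2 was at 0 in every acute 24 h library, and Serpina1b and Ahsg were among the members with the most counts left there. Capitals mark short words on either strand, AAAGTCC (the core of an HNF4 site, GGACTTT on the other strand) and TATAAA (the TATA box, TTTATA on the other strand). The strand forms of TATAAA can share bases with each other, and none of the words shown did.

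Promoter windows of 250 bases, 5′ to 3′ on the strand of the gene:
Alb, chr5:90460620-90460869, plus strand: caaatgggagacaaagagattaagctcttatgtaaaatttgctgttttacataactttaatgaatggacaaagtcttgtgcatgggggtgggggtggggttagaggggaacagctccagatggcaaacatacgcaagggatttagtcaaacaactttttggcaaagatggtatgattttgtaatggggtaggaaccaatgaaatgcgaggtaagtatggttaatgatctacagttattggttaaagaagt
Fgb, chr3:83049864-83050113, minus strand: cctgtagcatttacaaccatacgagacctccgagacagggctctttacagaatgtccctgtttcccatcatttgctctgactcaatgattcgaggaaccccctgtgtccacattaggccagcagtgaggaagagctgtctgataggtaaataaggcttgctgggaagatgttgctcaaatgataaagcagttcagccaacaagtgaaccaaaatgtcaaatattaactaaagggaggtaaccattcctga
Slco1b2, chr6:141629268-141629517, plus strand: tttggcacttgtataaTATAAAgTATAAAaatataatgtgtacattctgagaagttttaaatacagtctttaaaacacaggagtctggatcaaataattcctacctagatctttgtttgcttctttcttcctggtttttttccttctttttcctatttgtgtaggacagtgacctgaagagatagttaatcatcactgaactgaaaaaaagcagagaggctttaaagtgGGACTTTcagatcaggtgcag
Serpina1b, chr12:103738190-103738439, minus strand: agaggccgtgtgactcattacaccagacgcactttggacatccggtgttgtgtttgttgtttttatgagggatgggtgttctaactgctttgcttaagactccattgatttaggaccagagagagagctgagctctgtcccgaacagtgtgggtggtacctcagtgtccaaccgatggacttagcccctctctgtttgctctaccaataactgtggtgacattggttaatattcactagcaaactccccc
Ahsg, chr16:22891765-22892014, plus strand: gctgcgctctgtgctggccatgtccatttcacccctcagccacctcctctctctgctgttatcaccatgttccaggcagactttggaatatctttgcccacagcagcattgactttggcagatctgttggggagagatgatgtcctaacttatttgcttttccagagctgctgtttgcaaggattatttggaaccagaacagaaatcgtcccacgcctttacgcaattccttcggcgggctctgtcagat

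TATAAA stood in the windows of 6 of the 26 members (Akr1c6, Apoa2, Apob, Fabp1, G6pc and Slco1b2), or 23.1%. It stood in those of 14.3% of all 27025 genes with a window. AAAGTCC stood in 2 of 26 (Apoa2 and Slco1b2), or 7.69%, and in 4.15% of all genes with a window. A gene with several windows was counted if any of them held the word. Of the 5 windows shown, that of Slco1b2 held both words and the other 4 held neither. These shares describe letters and were not tested. In the GENCODE annotation none of the 5 windows held exon bases. Those of Ahsg and Serpina1b lay inside the models of these same genes, and that of Ahsg also inside the model of Gm30505.

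Summed over the 36 members, the share of all counts in the healthy libraries was 0.177, 0.276, 0.301 and 1.11% in replicates 1 to 4. Replicates 1 to 3 lay close together and replicate 4 was far above them, so that the mean was 0.466 ± 0.432% (SD, n = 4), or 0.251 ± 0.0656% without replicate 4. In the acute 24 h libraries the share was 0.0778, 0.0838 and 0.131%, with a mean of 0.0974 ± 0.0289% (SD, n = 3). All 3 lay below every healthy library. At acute 72 h it was 0.309, 0.323, 0.658 and 0.307%, at acute 7 d 0.987, 0.619, 0.521 and 0.611%, at chronic 24 h 0.605, 0.428, 0.176 and 0.237%, at chronic 72 h 0.900, 1.01, 0.700 and 0.964% and at chronic 14 d 1.20, 2.52, 0.758 and 0.613%. The acute 7 d, chronic 72 h and chronic 14 d libraries all lay above the healthy replicates 1 to 3, and healthy replicate 4 lay within the range of chronic 14 d. In bulk RNA of this kind, fewer hepatocytes among the sorted cells and less RNA per hepatocyte cannot be told apart.

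**Figure D1:**
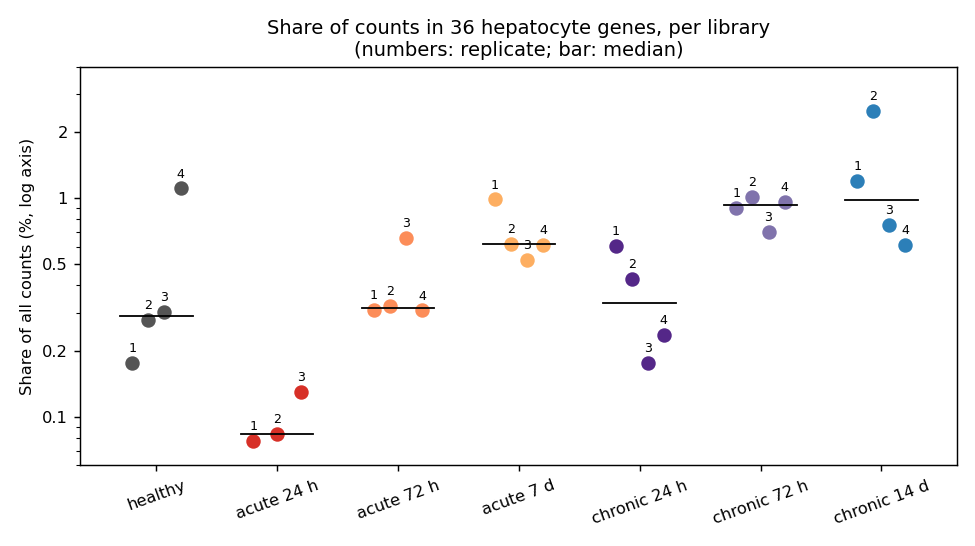
Share of all counts held by the 36 hepatocyte genes (percent, log axis) in each of the 27 libraries, by group, with the replicate number beside each point and a bar at the group median. The 3 acute 24 h libraries (0.0778 to 0.131%) are the lowest of the series, and healthy replicate 4 (1.11%) and chronic 14 d replicate 2 (2.52%) stand far above their groups.

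The counting error of these shares was small beside the spread between libraries: the 95% Wilson interval of a library's share reached 0.449 to 2.04% of the share to each side, which covers counting error only. Relative to healthy, the mean share was 0.209 at acute 24 h, 0.858 at acute 72 h, 1.47 at acute 7 d, 0.776 at chronic 24 h, 1.92 at chronic 72 h and 2.73 at chronic 14 d. Without healthy replicate 4 the same ratios were 0.387, 1.59, 2.72, 1.44, 3.56 and 5.05, so those of acute 72 h and chronic 24 h turned from below to above 1. Chronic 14 d replicate 2 also carried much of its group: without it the mean share fell from 1.27 ± 0.866% to 0.856 ± 0.305%.

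In each group that held libraries of both depths, a shallow library had the highest share and a deep one the lowest. The chronic 24 h replicates 1 and 2, under 9 M counts, had the higher shares of their group, and in chronic 72 h those of the shallow replicates 1 and 2 overlapped those of the deep replicates 3 and 4. All chronic 14 d libraries held under 9 M counts and all healthy libraries more, so depth and group cannot be told apart there. With depth class (under or over 9 M counts) as a term in the fits below, the members' median log2 fold change against healthy was lower. It was -1.12 against -0.52 at chronic 24 h, 0.55 against 1.05 at chronic 72 h and 0.72 against 1.36 at chronic 14 d.

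The 3 roles were not equally low at acute 24 h. The carriers and apolipoproteins held 0.170% of counts on average in healthy and 0.0162% in acute 24 h libraries, the metabolic genes 0.0400% and 0.00168%, but the clotting proteins and protease inhibitors 0.256% and 0.0795%. Most of the last value was 1 gene, Serpina1b. The healthy means without replicate 4 were 0.0892% for the carriers, 0.0183% for the metabolic genes and 0.144% for the clotting proteins and inhibitors. Without Serpina1b, Itih3 and Itih4, the other 33 members held 0.404% of counts in healthy and 0.0350% in acute 24 h libraries, and the healthy mean was 0.199% without replicate 4.

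**Figure D2:**
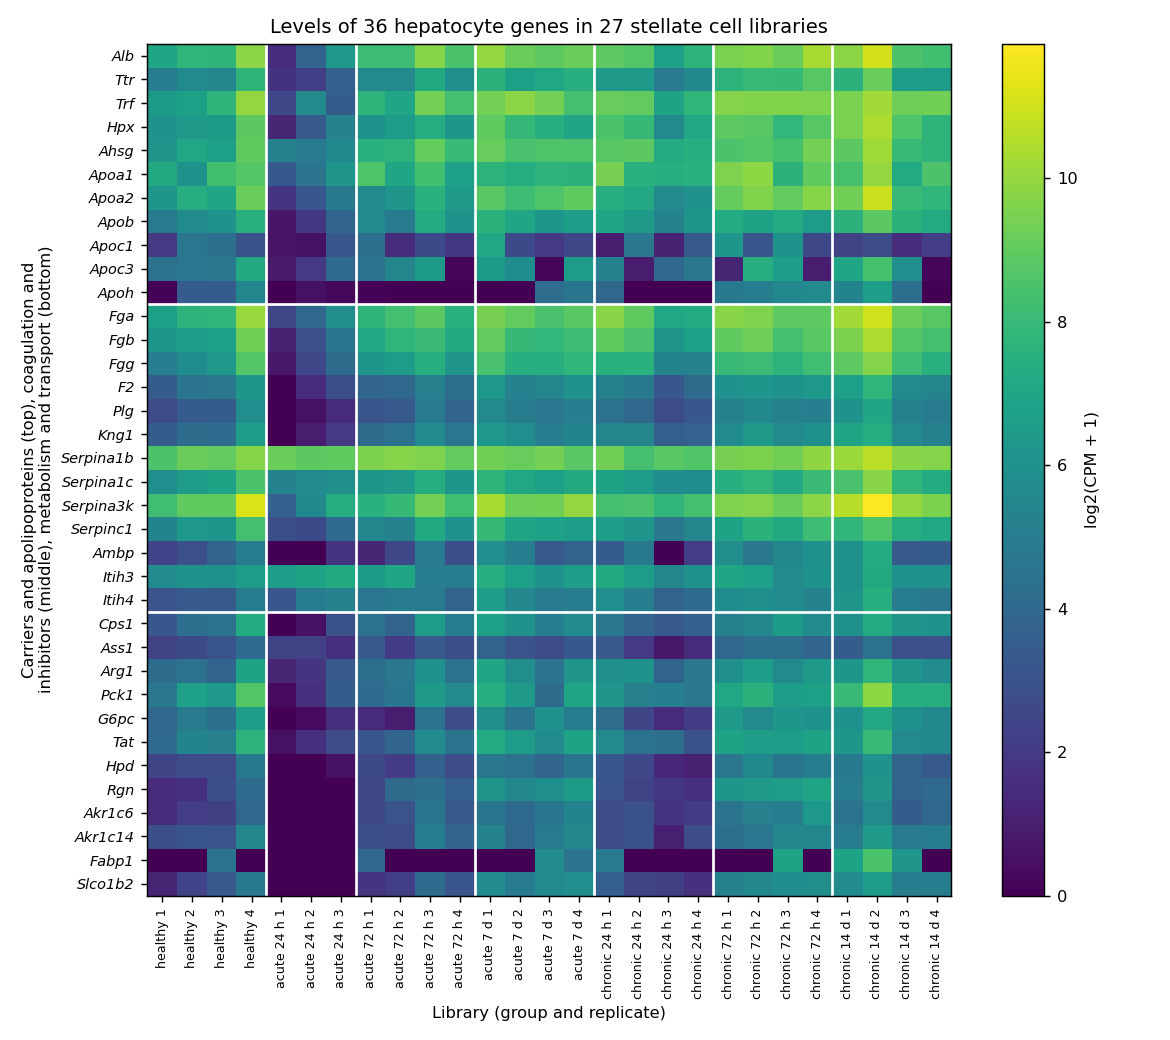
Level of each of the 36 members, as log2(CPM + 1), in each of the 27 libraries, where CPM is counts per mega-count of the library after TMM scaling. Genes are ordered by role (11 carriers and apolipoproteins at the top, 13 clotting proteins and protease inhibitors in the middle, 12 genes of metabolism and transport at the bottom) and libraries by group and replicate. The acute 24 h columns are low for most genes, and Apoh, Fabp1 and Apoc3 switch between high and near 0 from library to library.

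Against healthy, 29 of the 36 members fell at acute 24 h and the other 7 were not called (edgeR quasi-likelihood test over all genes, Benjamini-Hochberg adjusted p below 0.05 and over 2-fold, in 1 fit over the 27 libraries). Of all genes tested, 12.5% were called lower and 9.41% higher in this comparison. The calls took in 9 of 11 carriers and apolipoproteins, 10 of 13 clotting proteins and inhibitors and 10 of 12 metabolic genes. The median log2 fold change of the members was -4.01, and that of all genes was -0.12. The count was 26 and the median -2.86 without healthy replicate 4, and without acute 24 h replicate 3 the count was 27 and the median -5.53.

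Alb, the main protein of plasma (ENSMUSG00000029368, GRCm38 chr5:90460897-90476602), had 127, 227, 209 and 881 CPM (counts per mega-count after TMM scaling) in healthy replicates 1 to 4 and 1.96, 12.8 and 78.5 CPM in acute 24 h replicates 1 to 3. Every acute 24 h library was below every healthy library, and the 3 differed widely among themselves, from 22 counts to 894. On the log2 scale the change was -3.54 ± 0.96 (SE, adjusted p = 0.00619), or -2.59 without healthy replicate 4. Apoa1, the main protein of high-density lipoprotein, had 147, 67.1, 310.0 and 424 CPM against 8.55, 22.7 and 69.9 CPM. Its ranges overlapped, since acute 24 h replicate 3 was above healthy replicate 2, and its log2 change was -2.81 ± 0.81 (SE, adjusted p = 0.00919), a call that was lost without acute 24 h replicate 1. The haem carrier Hpx, the iron carrier Trf and the thyroid hormone carrier Ttr were called lower as well, with Hpx at 1.42, 9.37 and 37.4 CPM after injury against 68.4, 82.2, 88.1 and 477 CPM.

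The fibrinogen chains Fga, Fgb and Fgg, which form the clot and whose genes lie next to each other on chromosome 3, were all called lower. Fgb (ENSMUSG00000033831, chr3:83040141-83049863) had 73.9, 100.05, 103 and 619 CPM in healthy and 1.25, 6.51 and 23.3 CPM in acute 24 h libraries, with no overlap and a log2 change of -4.43 ± 0.94 (SE, adjusted p = 0.000858), or -3.16 without healthy replicate 4. Prothrombin (F2) had 10.2, 22.7, 24.8 and 75.9 CPM against 0, 1.65 and 6.15 CPM, and plasminogen (Plg) 5.62, 9.85, 10.3 and 56.3 CPM against 0, 0.434 and 1.67 CPM. Neither gene's groups overlapped, and 1 of the 3 injured libraries was at 0 for each.

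The smallest called change in this comparison was in Serpina1c, a copy of alpha-1-antitrypsin, with 55.4, 91.8, 114 and 358 CPM against 38.5, 51.1 and 59.2 CPM and a log2 change of -1.64 ± 0.56 (SE, adjusted p = 0.0272). Its acute 24 h replicate 3 was above healthy replicate 1. Its call held in 9 of 16 alternatives, and without healthy replicate 4 its change was -0.81 (adjusted p = 0.21 by edgeR). Of the 75-base words in its exons, 64.6% also occur in other Serpina1 copies, so its counts cannot be assigned to it with certainty. Ahsg, the mineral-binding fetuin-A, had 68.8, 136, 105 and 500.2 CPM against 36.6, 28 and 45.7 CPM and a log2 change of -2.46 ± 0.65 (SE, adjusted p = 0.00528), or -1.49 without healthy replicate 4. Its groups did not overlap, but its injured libraries lay close together where those of Alb were spread.

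**Figure D3:**
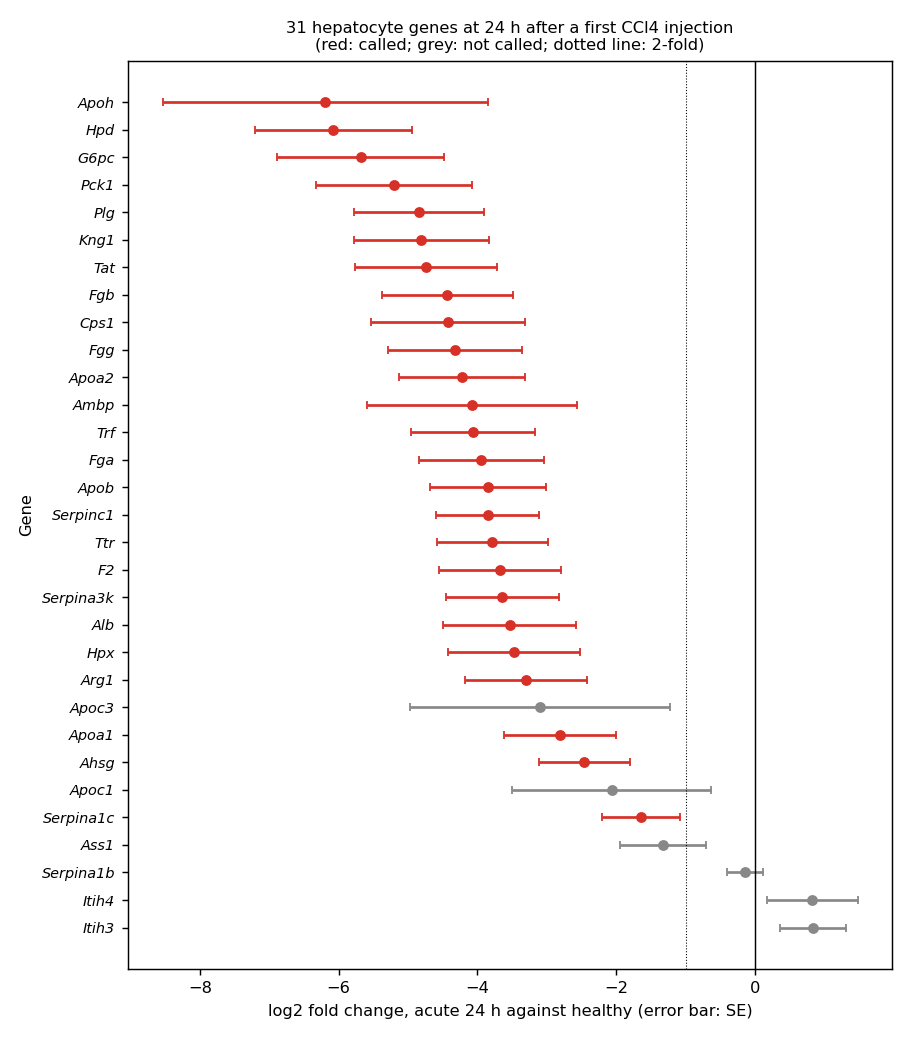
Log2 fold change (x axis, bars show the standard error of the edgeR fit) of 31 members at acute 24 h against healthy. Red points were called lower (25 genes shown), grey points were not called (Apoc3, Apoc1, Ass1, Serpina1b, Itih3 and Itih4), and the dotted line marks a 2-fold change. Rgn, Akr1c6, Akr1c14, Slco1b2 and Fabp1 are not drawn because all 3 acute 24 h libraries were at 0.

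Among the metabolic genes, Cps1, the carbamoyl phosphate synthetase of the urea cycle, had 8.25, 19.4, 21 and 156 CPM in healthy and 0, 0.434 and 6.67 CPM in acute 24 h libraries, a log2 change of -4.43 ± 1.11 (SE, adjusted p = 0.00349). Arg1, the arginase that releases urea, had 17, 20.9, 13.2 and 119 CPM against 1.34, 2.52 and 9.04 CPM, a log2 change of -3.30 ± 0.88 (SE, adjusted p = 0.0056). Neither gene's groups overlapped. The changes were -2.77 for Cps1 and -1.98 for Arg1 without healthy replicate 4, both still called. With only the healthy and acute 24 h libraries in the fit, Alb, Cps1 and Arg1 were not called. The gluconeogenic enzymes Pck1 and G6pc were called lower too, with Pck1 at 26.3, 111, 78.1 and 412 CPM against 0.267, 2.0 and 10.4 CPM. Ass1, the argininosuccinate synthase of the same urea cycle, was not called: it had 4.08, 5.36, 7.58 and 16.6 CPM against 3.92, 4.08 and 2.02 CPM, and its groups overlapped.

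Zero counts were concentrated in acute 24 h. Of the 36 members, 23 had counts in all 27 libraries, and 13 were at 0 in at least 1 acute 24 h library: 13 in replicate 1, 7 in replicate 2 and 5 in replicate 3. The 5 at 0 in all 3 were Rgn, Akr1c6, Akr1c14, Slco1b2 and Fabp1. Outside acute 24 h, 3 members were at 0 in any of the 24 libraries: Ambp, Apoh and Fabp1. A count of 0 allows up to 3 counts in a library, or 0.264 CPM on average over the group.

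Rgn (regucalcin), the steroid-converting aldo-keto reductases Akr1c6 and Akr1c14, and Slco1b2, a transporter that takes up organic anions from blood, therefore have bounds in place of fold changes. Against acute 7 d they were at least 244-fold (Rgn), 97.8-fold (Akr1c6), 120.4-fold (Akr1c14) and 176-fold (Slco1b2) lower at acute 24 h. Against chronic 24 h the same bounds were 15.4-fold, 17.4-fold, 18.6-fold and 20-fold. Against healthy, Akr1c6 was at least 22.6-fold lower, or at least 11.5-fold without healthy replicate 4. The lowest count of Rgn and Akr1c6 in any other library was 20, that of Akr1c14 was 12 and that of Slco1b2 was 15.

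Serpina1b, Itih3 and Itih4 had acute 24 h values within or above their healthy range. Serpina1b, the alpha-1-antitrypsin copy with most counts, had 378, 562, 521 and 829.7 CPM in healthy and 584, 467 and 499 CPM in acute 24 h libraries, ranges that overlapped, and was not called. It made up as much as 71.2% of all member counts in an acute 24 h library, against at most 20.6% in a healthy one. Across all 27 libraries its counts ran from 2394 to 12293. Its gene model (chr12:103728156-103830373, minus strand) spans the copy Serpina1d, and 18.0% of its 75-base words occur in other Serpina1 copies, so reads of several copies may be counted in it.

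Itih3 and Itih4 encode members of the inter-alpha-trypsin inhibitor heavy chain family, and lie beside each other on chromosome 14 (Itih3 at 30908572-30923760, Itih4 at 30886476-30902353). Itih3 had 51.2, 64.6, 61.5 and 91.6 CPM in healthy and 99.2, 114 and 146 CPM in acute 24 h libraries. All 3 injured libraries lay above all 4 healthy ones, but the change was not called. Itih4 had 7.25, 9.26, 9.44 and 31.9 CPM against 8.46, 30.6 and 37.7 CPM, with overlap. Neither fell with Alb from healthy to acute 24 h. Within acute 24 h both rose from replicate 1 to replicate 3, as Alb did.

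Other hepatocyte genes, outside the members, were counted in the same comparison, in which 12.5% of all genes were called lower. Of 42 other secreted proteins, 35 were called lower at acute 24 h, and of 30 other metabolic genes, 26 were. Among 10 liver transcription factors 7 were called lower. Hnf4a, the factor of the HNF4 sites above, had 11.9 ± 9.86 CPM (mean ± SD, n = 4) in healthy and 0.906 ± 1.28 CPM (n = 3) in acute 24 h libraries. Its level was 26.4 CPM in healthy replicate 4, against a median of 7.61 CPM in the other healthy libraries. Foxa2 was at 0 in all 3 acute 24 h libraries. It was low in healthy libraries too, at 5.98 CPM in replicate 4 and a median of 1.37 CPM in the others. Cebpa, Nr1h4 and Nr1i3 were not called. Of 10 markers of endothelial cells, 7 were called lower too and 1 was called higher. Their summed level, over raw totals, was 169 to 589.5 CPM in healthy and 72.8 to 105 CPM in acute 24 h libraries. Their part in the members' change was not tested.

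At 72 h after 1 injection 1 member was called, Apoh, which fell (4.33% of all genes were called lower and 8.23% higher). The median log2 fold change of the members was -0.44. It was 0.58 without healthy replicate 4, and 3 members were then called higher beside 1 called lower. Alb had 285, 279, 841 and 362 CPM in acute 72 h libraries, all 4 of them above healthy replicates 1 to 3 and below replicate 4, with a log2 change of 0.29 ± 0.77 (SE, adjusted p = 0.835). Replicate 3 was far above the other acute 72 h libraries. Apoh, a plasma protein that binds phospholipids, had 1 count in the 4 acute 72 h libraries together and 719 in the 4 healthy ones, a ratio of 0.0014 with a 95% counting interval of 3.53e-05 to 0.00781.

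That call, which was lost without acute 72 h replicate 4, rests on a gene with isolated zeros. Apoh had 1, 101, 120 and 497 counts in healthy, 0, 0, 224 and 310 in acute 7 d, 95, 0, 0 and 0 in chronic 24 h, 199, 219, 581 and 613 in chronic 72 h and 293, 736, 153 and 0 in chronic 14 d libraries. High and near-empty libraries stood side by side within 4 of these 5 groups, and Alb was well above 0 in all of them.

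By 7 d after 1 injection, 4 members were higher than in healthy: Rgn, Akr1c6, Slco1b2 and Itih4. Over all genes 9.23% were called higher and 5.64% lower. The median log2 fold change of the members was 0.67, with 31 of 36 above 0, and the calls were 3 of the 12 metabolic genes and 1 of the 13 clotting proteins and inhibitors. Without healthy replicate 4, 12 members were called higher and the median was 1.74. Without acute 7 d replicate 1 the median was 0.27. Without any one of healthy replicates 1 to 3, 1 member was called higher.

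Rgn (ENSMUSG00000023070, chrX:20549787-20562089) had 1.81, 2.15, 6.24 and 16.6 CPM in healthy and 69, 42.6, 58.8 and 86.9 CPM in acute 7 d libraries. Every acute 7 d library was above healthy replicate 4, and the log2 change was 3.26 ± 0.65 (SE, adjusted p = 0.00095). Slco1b2 (ENSMUSG00000030236, chr6:141629518-141686646) had 1.36, 4.19, 8.85 and 26.8 CPM against 51.7, 27.6, 50.6 and 56.3 CPM, without overlap, and a log2 change of 2.17 ± 0.68 (SE, adjusted p = 0.0251). Akr1c6 (ENSMUSG00000021210, chr13:4434306-4457877) had 1.81, 3.51, 3.79 and 14.7 CPM against 23.5, 15.6, 23.8 and 40.2 CPM, again without overlap, and 2.11 ± 0.64 (SE, adjusted p = 0.02). Itih4 had 99.6, 44.5, 27.8 and 30.9 CPM in acute 7 d libraries, where 2 of the 4 lay below healthy replicate 4, and 1.81 ± 0.63 (SE, adjusted p = 0.0393). The changes without healthy replicate 4 were 4.23 for Rgn, 3.27 for Slco1b2, 3.08 for Akr1c6 and 2.55 for Itih4. Of 17 alternatives, 12 kept the call of Slco1b2, 13 that of Akr1c6 and 9 that of Itih4.

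Alb at the same time had 976, 584, 477 and 592 CPM, a log2 change of 0.86 ± 0.77 (SE, adjusted p = 0.464) that was not called. Markers of macrophages moved in this group as well: 10 of the 12 were called higher, and their summed level over raw totals was 4465 to 10617 CPM in acute 7 d against 174 to 684 CPM in healthy libraries, with none of the 12 at 0 in either group. Their part in the members' levels was not tested.

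The 3 metabolic genes called at acute 7 d were higher relative to Alb as well as in level. As a ratio of counts, Rgn to Alb was 0.0181 ± 0.00868 (SD, n = 4) in healthy libraries, from 0.00947 to 0.0298, and 0.0707 to 0.147 in acute 7 d libraries. The ratio of Slco1b2 to Alb was 0.0107 to 0.0423 in healthy and 0.0472 to 0.106 in acute 7 d libraries, and that of Akr1c6 to Alb 0.0143 to 0.0181 and 0.0241 to 0.0679. None of the 3 ratios overlapped between the groups, and healthy replicate 4 did not stand apart in them as it did in level. A ratio of counts within a library does not depend on its depth or scaling, and shows unequal change of the pair, not which gene moved.

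**Figure D4:**
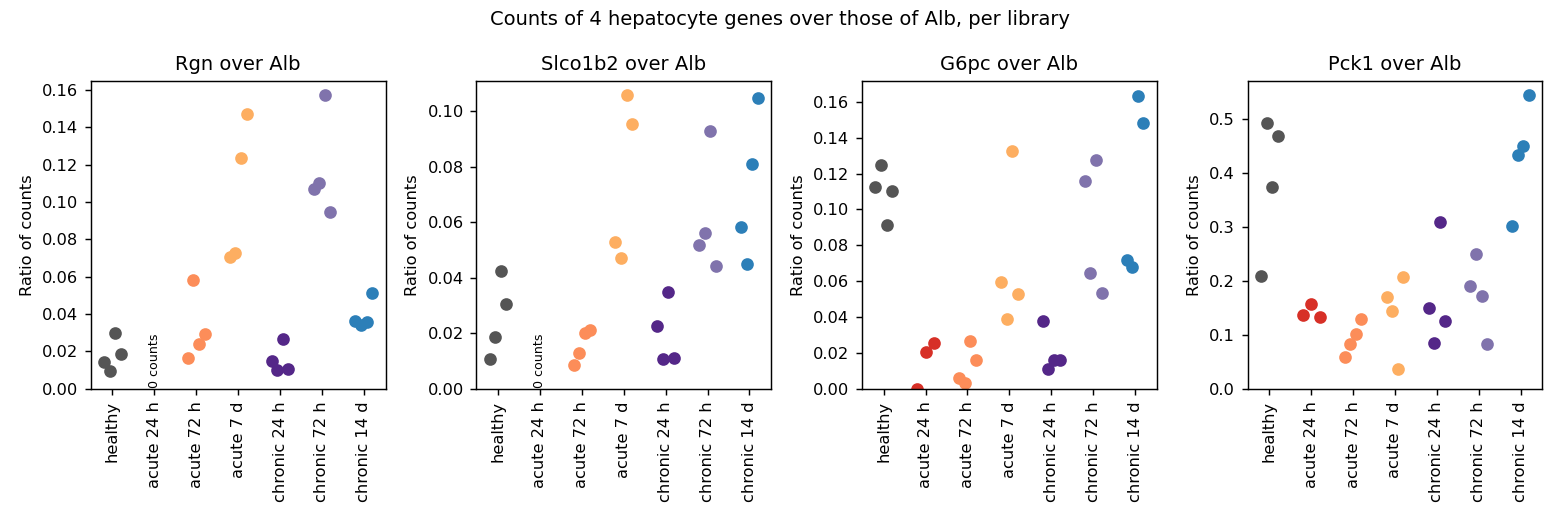
Ratio of counts of Rgn, Slco1b2, G6pc and Pck1 to those of Alb in each library, by group (1 panel a gene). Rgn and Slco1b2 had 0 counts in all acute 24 h libraries. The ratios of Rgn and Slco1b2 in acute 7 d, chronic 72 h and chronic 14 d lie above all healthy libraries, and the ratio of G6pc in acute 72 h and chronic 24 h lies below them.

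From 24 h to 7 d after 1 injection, 28 of the 36 members rose (17.8% of all genes were called higher in that comparison and 9.24% lower), with a median log2 fold change of 4.60. The calls were 8 of 11 carriers and apolipoproteins, 10 of 13 clotting proteins and inhibitors and 10 of 12 metabolic genes. Alb rose on the log2 scale by 4.40 ± 1.00 (SE, adjusted p = 0.0013), Fgb by 4.96 ± 0.97 (SE, adjusted p = 0.000319), Cps1 by 4.74 ± 1.13 (SE, adjusted p = 0.00189) and Arg1 by 4.01 ± 0.91 (SE, adjusted p = 0.00128). This comparison shares its acute 24 h libraries with that of acute 24 h against healthy, and it holds no healthy library. Without acute 24 h replicate 3 the median was 6.21. Other cell types' markers moved as well: all 12 macrophage markers were called higher, at 166 to 239 CPM over raw totals in acute 24 h libraries against 4465 to 10617 CPM, and so were 7 of 10 endothelial markers, at 72.8 to 105 CPM against 279.6 to 788 CPM. Their part in the members' rise was not tested.

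After repeated injection the members at 24 h were not as low as after a single one. Compared directly, 23 of 36 members were higher at chronic 24 h than at acute 24 h (10.9% of all genes were called higher and 3.05% lower), with a median log2 fold change of 3.26. Alb had 479.8, 408, 106 and 199.8 CPM at chronic 24 h, every library above the highest of acute 24 h, and differed by 3.26 ± 0.95 (SE, adjusted p = 0.0159). Apoa1 differed by 3.21 ± 0.82 (SE, adjusted p = 0.00705), Fgb by 4.65 ± 0.95 (SE, adjusted p = 0.00119) and Arg1 by 3.26 ± 0.88 (SE, adjusted p = 0.0101). The calls of Apoa1 and Fgb held in 16 of 16 alternatives, that of Alb in 12 and that of Arg1 in 13. Those of Alb and Arg1 were lost with depth class as a term and without acute 24 h replicate 1 or 2. Without acute 24 h replicate 2, 15 members were called, without replicate 3, 27 with a median of 4.92, and with depth class (under or over 9 M counts) as a term, 18 with a median of 2.66. Cps1 had 26.1, 13.6, 9.12 and 11.4 CPM at chronic 24 h and was not called, with 2.65 ± 1.04 (SE, adjusted p = 0.0732). The chronic mice also came from another age range than the acute mice, and age and the number of injections cannot be told apart. Of the 12 macrophage markers 9 were called higher at chronic 24 h, at 559.5 to 3816 CPM over raw totals against 166 to 239 CPM at acute 24 h, and of the 10 endothelial markers 3 were. Their part in the members' difference was not tested.

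Against healthy, chronic 24 h had 1 member lower, G6pc, the glucose-6-phosphatase that releases glucose (ENSMUSG00000078650, chr11:101367561-101377903), where 8.11% of all genes were called lower. G6pc had 14.2, 28.3, 19.1 and 97.1 CPM in healthy and 18, 4.53, 1.67 and 3.20 CPM in chronic 24 h libraries, of which replicate 1 lay within the healthy range, and a log2 change of -2.57 ± 0.88 (SE, adjusted p = 0.0292). Alb changed by -0.28 ± 0.77 (SE, adjusted p = 0.821), which was not called. Without healthy replicate 4, G6pc was not called and 2 members were higher, and G6pc was not called without chronic 24 h replicate 2, 3 or 4 either.

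G6pc was also low against Alb at several times. Its ratio to Alb was 0.110 ± 0.0138 (SD, n = 4) in healthy libraries, from 0.0914 to 0.125. It was 0.0031 to 0.0264 in acute 72 h and 0.0111 to 0.0375 in chronic 24 h libraries, below every healthy library. In chronic 14 d it was 0.0681 to 0.163, which spans the healthy range. Pck1, the enzyme before it in gluconeogenesis, had a ratio to Alb of 0.208 to 0.491 in healthy, 0.0585 to 0.129 in acute 72 h and 0.301 to 0.544 in chronic 14 d libraries, so that acute 72 h lay below healthy and chronic 14 d overlapped it.

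The chain genes of fibrinogen varied less relative to Alb. The counts of Fga, Fgb and Fgg together were 1.89 ± 0.343 times those of Alb in healthy libraries (SD, n = 4) and 1.61 ± 0.0149 times in acute 7 d libraries. The group means ran from 1.49 at acute 72 h to 2.81 ± 0.621 at chronic 14 d, and that of acute 24 h, where Alb itself was lowest, was 2.23.

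At 72 h after the last of the repeated injections, 4 members were higher than in healthy libraries, and they were the same 4 genes as at acute 7 d: Rgn, Akr1c6, Slco1b2 and Itih4 (7.88% of all genes were called higher and 4.2% lower). Both comparisons share the healthy libraries. Rgn had 75.5, 85.9, 92.1 and 122 CPM, above every healthy library, with a log2 change of 3.80 ± 0.66 (SE, adjusted p = 0.000319). Akr1c6 had 22.7, 34.4, 31.1 and 78.9 CPM and 2.81 ± 0.65 (SE, adjusted p = 0.00404), and Slco1b2 had 36.5, 43.7, 54.2 and 56.6 CPM and 2.21 ± 0.68 (SE, adjusted p = 0.0263). Itih4 had 54.4, 59, 51.8 and 38.5 CPM, every library above healthy replicate 4, and 1.81 ± 0.63 (SE, adjusted p = 0.0443). Leaving out healthy replicate 4 gave 4.77 for Rgn, 3.78 for Akr1c6, 3.31 for Slco1b2 and 2.55 for Itih4. The calls of Rgn and Akr1c6 held in 17 of 17 alternatives, that of Slco1b2 in 10 and that of Itih4 in 7. That of Itih4 was lost without any one of the chronic 72 h replicates.

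The ratio to Alb at chronic 72 h was 0.0947 to 0.157 for Rgn, 0.0441 to 0.0926 for Slco1b2 and 0.0322 to 0.0615 for Akr1c6. All 12 values lay above the healthy ranges given above. The median log2 fold change of the members was 1.05, or 0.55 with depth class as a term. Alb changed by 1.22 ± 0.78 (SE, adjusted p = 0.294) and was not called. Of the 12 macrophage markers 8 were called higher in this comparison, at a summed level of 1131 to 3390 CPM over raw totals, and their part was not tested. Without healthy replicate 4, 17 members were called higher with a median of 2.06, and without any one of replicates 1 to 3, or without chronic 72 h replicate 4, 2 members.

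At 14 d after the last injection, 3 members were higher than in healthy libraries (4.55% of all genes were called higher and 1.17% lower): Rgn, Slco1b2 and Itih4. Rgn had 32.1, 72.4, 13.4 and 15.9 CPM and a log2 change of 2.32 ± 0.63 (SE, adjusted p = 0.0246), and 2 of its 4 libraries lay below healthy replicate 4. Slco1b2 had 51.2, 94.5, 30.2 and 32.3 CPM, all above healthy, and 2.33 ± 0.69 (SE, adjusted p = 0.0385). Itih4 had 69.7, 176, 31.6 and 25.3 CPM, with overlap, and 2.39 ± 0.64 (SE, adjusted p = 0.0213). The ratio to Alb at chronic 14 d was 0.0344 to 0.0514 for Rgn, 0.0448 to 0.105 for Slco1b2 and 0.0236 to 0.0480 for Akr1c6. Every library lay above the healthy ranges of these ratios. The median log2 fold change of the members was 1.36, with 35 of 36 above 0. Yet neither Alb, at 1.35 ± 0.78 (SE, adjusted p = 0.32), nor Fgb, at 1.65 ± 0.74 (SE, adjusted p = 0.175), was called.

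These calls depended on single libraries. Without healthy replicate 4, 23 members were called higher at chronic 14 d, Fgb among them, with a median of 2.50. Without chronic 14 d replicate 2 the median was 0.69 and none was called by edgeR, with 5 at an unadjusted p below 0.05, and the same held without any one of healthy replicates 1 to 3, with 6 or 7. DESeq2 on all libraries called 5. With depth class as a term no member was called by edgeR, 3 were higher at an unadjusted p below 0.05, and the median was 0.72.

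From 24 h to 14 d after the last injection, a comparison without healthy libraries, 18 of 36 members rose, and 6.65% of all genes were called higher and 6.11% lower. They were 10 of 12 metabolic genes, 6 of 13 clotting proteins and inhibitors and 2 of 11 carriers and apolipoproteins, with median log2 fold changes of 2.99, 1.95 and 1.62 for the 3 roles. G6pc had 63.2, 143, 61 and 45.8 CPM at chronic 14 d, all 4 above the highest chronic 24 h library, and rose on the log2 scale by 3.55 ± 0.91 (SE, adjusted p = 0.00679). Slco1b2 rose by 3.33 ± 0.73 (SE, adjusted p = 0.00229), Pck1 by 3.21 ± 0.89 (SE, adjusted p = 0.0111), Akr1c14 by 3.17 ± 0.72 (SE, adjusted p = 0.003) and Rgn by 3.08 ± 0.66 (SE, adjusted p = 0.00197).

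The smallest called change was in Serpina1b, which had 619.7, 329, 451 and 403 CPM at chronic 24 h and 1089.8, 1577, 873 and 805 CPM at chronic 14 d, without overlap, and rose by 1.27 ± 0.24 (SE, adjusted p = 0.000581). Alb, with overlapping libraries, was not called, at 1.62 ± 0.79 (SE, adjusted p = 0.148). Without chronic 14 d replicate 2, 8 members were called, Pck1 not among them, with a median of 1.5 over the members against 2.10 with all libraries, and with depth class as a term 11. Markers of endothelial cells were higher as well, 8 of 10 called, at 80.7 to 242 CPM over raw totals in chronic 24 h and 569 to 823 CPM in chronic 14 d libraries, and 5 of 12 stellate markers were called higher. Their part in the members' rise was not tested. The 4 chronic 14 d libraries and 2 of the 4 chronic 24 h libraries were shallow.

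Across the 27 libraries, most members rose and fell with the other hepatocyte genes. As a description, 28 of the 36 members had a Pearson correlation above 0.8 between their level and the summed level of 69 hepatocyte genes outside the list, with a median of 0.927, and 22 did so after the group means were removed, with a median of 0.870. The points share libraries and scaling. F2 was highest at 0.994. The lowest were Itih3 at 0.0560, Apoc1 at 0.391, Fabp1 at 0.407, Apoc3 at 0.452 and Serpina1b at 0.578.

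The low values came in 2 forms. Itih3 and Serpina1b varied less than Alb did between libraries. Fabp1, the liver fatty acid carrier, and Apoc3, an inhibitor of lipoprotein lipase, varied more than Alb did, between high and near 0. Fabp1 was at 0 in 18 of 27 libraries and had 164 to 2744 counts in the others: 0, 0, 269 and 0 in healthy, 0, 0, 651 and 288 in acute 7 d and 857, 2744, 592 and 0 in chronic 14 d libraries. Alb was above 0 in all 18 libraries where Fabp1 was at 0.

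Apoc3 had 233, 247, 308 and 1717 counts in healthy, 250, 482, 1083 and 2 in acute 72 h, 1065, 647, 2 and 1180 in acute 7 d, 247, 7, 168 and 319 in chronic 24 h, 10, 1246, 1251 and 11 in chronic 72 h and 941, 2566, 468 and 1 in chronic 14 d libraries. Outside acute 24 h, 6 libraries held at most 11 counts. They were not the same libraries as for Fabp1 and Apoh: acute 7 d replicate 3 had 2 counts of Apoc3 with 651 of Fabp1 and 224 of Apoh, and chronic 72 h replicate 4 had 11, 0 and 613. In chronic 14 d replicate 4 all 3 genes were at 0 or 1 count. Apoc1 had 5 to 1713 counts in the 27 libraries and did not follow Alb either. How the authors' counts were derived from transcript assembly was not given in the sources used here.

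**Figure D5:**
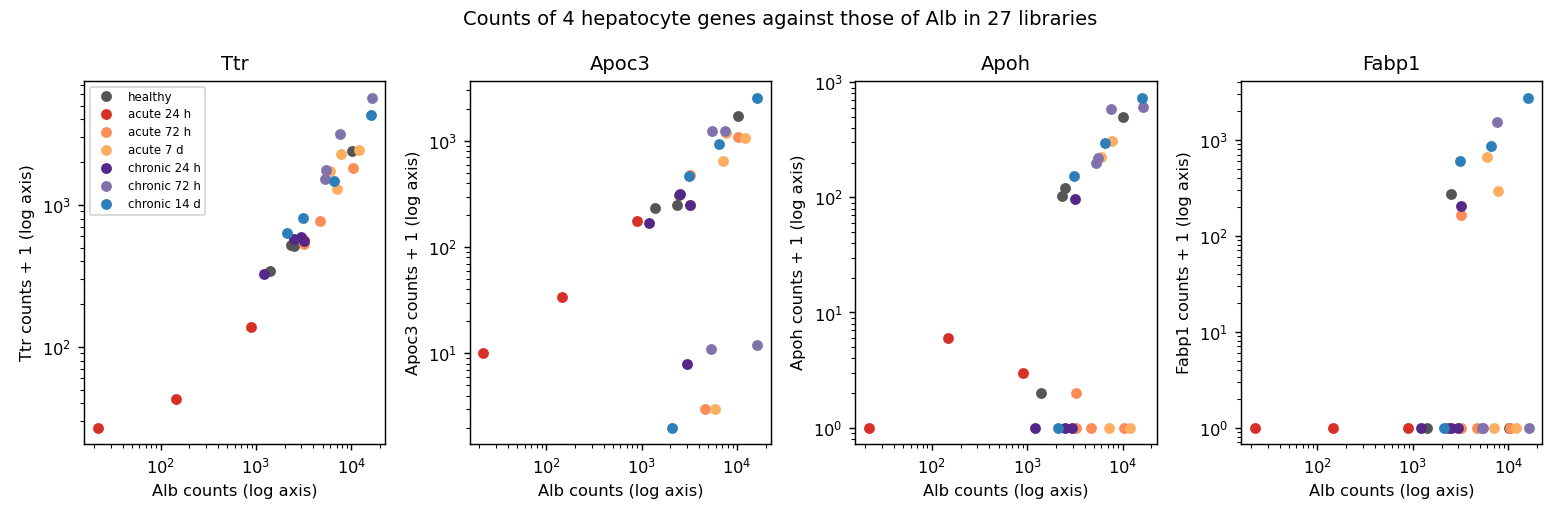
Counts + 1 of Ttr, Apoc3, Apoh and Fabp1 against counts of Alb in the 27 libraries (both axes log, 1 panel a gene, colour by group). Ttr rises with Alb throughout, and each of the other 3 splits into libraries that lie along such a line and libraries at or near 0 counts.

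Among healthy libraries and per kb of exon, the members ran over more than 2 orders of magnitude. The highest were Serpina3k at 446 CPM per kb, Apoa2 at 441, Serpina1b at 237, Apoa1 at 192 and Alb at 154, and the lowest Akr1c6 at 2.93 and Slco1b2 at 2.09. These are means of libraries that differ severalfold, so that neighbours in the order were not separated by their spread. Over the groups, the levels of most members were lowest at acute 24 h and highest at chronic 14 d or chronic 72 h. The order of the groups between these ends was not the same for every member, as the ratios of Rgn, Slco1b2, G6pc and Pck1 to Alb show.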

How the data were processed

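RNA from UV-sorted hepatic stellate cells was sequenced in 27 libraries of 7 groups. The authors trimmed single-end 75 bp reads, aligned them with STAR to GRCm38.p6, ran StringTie and deposited raw counts per gene; tool versions, the annotation release, the strand setting and how the counts were taken were not given in the sources used here. Groups and replicate numbers came from the labels.

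From the counts, CPM were scaled by TMM, genes were filtered with filterByExpr by group, and edgeR 4.0.16 (limma 3.58.1, R 4.3.3) fitted 1 quasi-likelihood model to all libraries with a mean per group. Calls needed a change above 2-fold and p below 0.05 after Benjamini-Hochberg adjustment over all genes tested. DESeq2 1.42.0 was an alternative, as were other scalings, filters, a replicate block, depth class and leaving out each library. The fit was tested on simulated data. Shares are percent of a library's total count. Symbols, positions and exon lengths came from GENCODE M21 on GRCm38, promoter windows from RefSeq on GRCm38.p6.

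Members and lists were chosen with earlier results of these data known, so no p-value is given for the list as a whole. Counts or CPM may be named for any member or listed gene. By the rule for named genes, fold changes may be given for Alb, Apoa1, Fgb, Serpina1c, Cps1, Rgn, Slco1b2, Fabp1 (at 0 in most libraries, so none is given) and Arg1, and for the 4 highest and the 4 lowest among the called members of a comparison. The libraries differed between replicates by 18.6 to 99.8 times the counting variance in all 39 within-group pairs, so none was taken as a repeat of another. Some of the planned results are not reported here.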

Additional observations from a re-analysis of the deposited data

Results flagged for a closer look

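In groups of 4 libraries, the summed share of the members and the levels of some of them were looked at, 60 sets of values in all. The members were Alb, Apoa1, Fgb, Serpina1c, Cps1, Rgn, Slco1b2, Fabp1 and Arg1. In 16 sets 1 library lay further from the rest than chance would place it in about 1 set in 20. Healthy replicate 4 was such a library for the summed share of counts (1.11%), Alb (881 CPM), Fgb (619 CPM), Cps1 (156 CPM) and Arg1 (119 CPM). Acute 72 h replicate 3 was one for the summed share (0.658%), Alb (841 CPM), Serpina1c (169.8 CPM) and Arg1 (60.8 CPM). Chronic 14 d replicate 2 was one for Cps1 (152 CPM) and Arg1 (214 CPM), and chronic 24 h replicate 1 for Apoa1 (695 CPM). In healthy replicate 4, acute 72 h replicate 3 and chronic 14 d replicate 2 several hepatocyte genes were high together.

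Fabp1 stood out in a different way, as 1 library with counts beside 3 at 0. Such a set is flagged whatever the count, so the rate of 1 in 20 does not apply to it. The libraries with counts were healthy replicate 3 (22.7 CPM), acute 72 h replicate 1 (14.5 CPM), chronic 24 h replicate 1 (30.1 CPM) and chronic 72 h replicate 3 (118 CPM). Of these, chronic 24 h replicate 1 was also the highest of its group for Alb (479.8 CPM), and the other 3 were not.

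The change 24 h after injury differed between a single and repeated injection, by the direct edgeR test of chronic 24 h against acute 24 h, for Alb (log2 fold change 3.26), Apoa1 (3.21), Fgb (4.65) and Arg1 (3.26), each higher in 4 of 4 chronic 24 h libraries than in any acute 24 h library. With depth class as a term, Alb and Arg1 were not called.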

How the results depend on the processing

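The fall at acute 24 h and the rises from acute 24 h to acute 7 d and from acute 24 h to chronic 24 h kept the direction of their medians under every alternative run. Apart from single libraries, their counts ran from 22 (only the groups compared in the fit) to 30 (DESeq2) for the fall, with 29 by the main fit, from 27 to 32 for acute 7 d, with 28, and from 18 (depth class) to 28 (DESeq2) for chronic 24 h, with 23. Calls against healthy after acute 24 h were few and moved with most choices. Members lower at acute 72 h (1 by the main fit) were 2 with DESeq2 size factors, 2 with a filter at a mean of 1 CPM, 2 by DESeq2, and 0 by edgeR without a filter (3 at an unadjusted p below 0.05) and with only the groups compared in the fit (1). Members higher at acute 7 d (4) were 2 without a filter and 2 with only the groups compared. Members lower at chronic 24 h (1) were 3 with depth class as a term and 3 by DESeq2, and 0 by edgeR without a filter (5 at an unadjusted p below 0.05), with the replicate block (2) and with only the groups compared (3). Members higher at chronic 72 h (4) were 2 without a filter and 2 with depth class. Members higher at chronic 14 d (3) were 5 with library size alone and 5 by DESeq2, 12 with both the highest healthy and the highest chronic 14 d library left out, an alternative chosen after seeing the data, and 0 by edgeR without a filter (16), with depth class (3) and with only the groups compared (8). Members higher at chronic 14 d than at chronic 24 h (18) were 11 with depth class and 12 without a filter.

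Leaving out each library in turn, members lower at acute 24 h ran from 25 to 29, higher at acute 72 h from 0 to 3 and lower from 0 to 2, higher at acute 7 d from 1 to 12, higher at chronic 24 h from 0 to 2 and lower from 0 to 4, higher at chronic 72 h from 2 to 17 and at chronic 14 d from 0 to 23. From acute 24 h to acute 7 d they ran from 25 to 30, from chronic 24 h to chronic 14 d from 8 to 20, and from acute to chronic 24 h from 15 to 27. The highest counts against healthy came without healthy replicate 4. The ratio of the summed share to healthy ran from 0.173 to 0.387 at acute 24 h, 0.672 to 1.59 at acute 72 h, 1.22 to 2.72 at acute 7 d, 0.602 to 1.44 at chronic 24 h, 1.59 to 3.56 at chronic 72 h and 1.84 to 5.05 at chronic 14 d. The log2 fold change of Alb ran from -0.24 to 1.24 at acute 72 h and from -0.603 to 0.67 at chronic 24 h. It turned direction at acute 72 h without acute 72 h replicate 3 (-0.24), and at chronic 24 h without healthy replicate 4 (0.67) and without chronic 24 h replicate 3 (0.0063). For the fold changes of named members, 608 of 703 alternatives kept direction and call, 88 lost the call, 4 gained it and 3 turned direction. Same-numbered replicates did not deviate together (correlations from -0.172 to 0.149), so the numbers were not taken as pairs, and the replicate block gave 26 members lower at acute 24 h, 3 higher at acute 7 d, 3 at chronic 72 h and 3 at chronic 14 d. The causes of these shifts were not tested. Depth limits members near 0 at acute 24 h, where falls are bounds.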

Other observations

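Hepatocyte genes outside the members can be set beside them by their place in the liver lobule. Rgn, Slco1b2 and Akr1c6 belong to a list of genes highest around the central vein, and of the 8 other tested genes of that list, 4 were called higher at acute 7 d (9.23% of all genes were) and 5 at chronic 72 h (7.88%), with median log2 fold changes of 1.90 and 2.35. The levels that follow are means ± SD over 4 libraries. At acute 7 d the 4 were Cyp2e1, the cytochrome P450 that activates CCl4, at 15 ± 10.6 CPM in healthy and 131 ± 71.5 CPM in acute 7 d libraries, Cyp1a2 at 8.89 ± 5.20 and 44.9 ± 16.8 CPM, the vitamin C enzyme Gulo at 4.43 ± 3.92 and 35.8 ± 11.8 CPM, and the secreted factor Lect2 at 0.590 ± 0.489 and 13 ± 4.57 CPM. Cyp2c29 was the fifth at chronic 72 h, and Glul and Oat, also of that list, were called at neither time. At chronic 24 h, 1 of the 8 was called higher and 1 lower (11.2% and 8.11% of all genes), with a median log2 fold change of -0.33. At chronic 14 d, 2 of the 8 were called higher (4.55% of all genes), Cyp2e1 and Lect2.

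Of 7 genes outside the members that are highest around the portal vein, 6 fell at acute 24 h, as did 5 of the 8 around the central vein. In that comparison 12.5% of all genes were called lower. The median log2 fold change of the portal genes against healthy was 0.02 at acute 7 d, 0.50 at chronic 72 h and 1.15 at chronic 14 d. The difference between the lists was not tested, and all these comparisons share the healthy libraries.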
